A study of Mus musculus with 20 samples.

Results

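The RUNX transcription factors and the genes that mark the choice between the CD4 and CD8 T cell lineages were followed through the data: Runx1, Runx2 and Runx3, their common partner Cbfb, the lineage factor Zbtb7b, and the coreceptor genes Cd4, Cd8a and Cd8b1. The 8 genes were taken by name and not by their values, and they are 8 of the 49315 genes in the count table. All 8 passed the filter on low counts that left 28082 genes for testing, and the lowest value of any of them in any library was 2.11 CPM, the count scaled to the size of its library, for Cd8a.

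RUNX proteins bind DNA as dimers with CBFβ, the product of Cbfb, which raises their affinity for DNA but does not bind it by itself. In the thymus, RUNX3 silences Cd4 and the gene for ThPOK (Zbtb7b) in cells that become CD8 T cells, and ThPOK holds back the CD8 programme in cells that become CD4 T cells. Mature CD4 T cells keep ThPOK, the CD4 coreceptor and RUNX1, and RUNX3 is known to act again in some helper subsets.

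The study compared splenic T effector cells, sorted as CD4+CD25- cells, from littermate mice that all carried floxed Pcbp2, a gene for an RNA-binding protein. Controls (Fl-Pcbp2, CTL) had no Cre, and knockouts (Fl-Pcbp2/CD4cre, CKO) carried Cre from the Cd4 promoter, which is active from the thymus on. Cells were lysed at 0 h or after 6 h with beads coated with CD3 and CD28 antibodies, giving 12 libraries at 0 h, 6 of each genotype, and 8 at 6 h, of which 5 were CTL and 3 CKO. No culture without beads was among the libraries, so the stimulus and the 6 h of culture cannot be told apart, and neither can the loss of Pcbp2 and the presence of Cre. Ages were not among the labels used here. Libraries are named below by the number in their label. The labels do not tie libraries to animals, so the p-values measure the spread between libraries.

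Library totals ran from 62402807 to 85608113 counts, except 26427467 for CTL 4.24 at 6 h, which was also the library lowest in Zbtb7b and Cd4. That library also stood apart in its scaling factor (TMM), at 1.368 against 1.015 to 1.096 in the other 6 h libraries. Pcbp2 ran from 261 to 396 CPM in the CTL and from 13.1 to 22.1 CPM in the CKO libraries at 0 h, and at 6 h the CKO mean was 2.7% of the CTL mean. The exact two-sided permutation p was 0.00216 at 0 h and 0.0179 at 6 h, each the smallest these group sizes allow. The CKO libraries 4.24 and 5.6 at 0 h, labelled male, had Xist at 1160 and 1353 CPM and Ddx3y at 0.284 and 0.117 CPM, against their label. Among the unstimulated libraries, only CTL 4.24, 5.6 and 10.28 carried a female label. Labelled sex was therefore partly tied to genotype at 0 h. The 8 T cell markers summed to 3685 to 4992 CPM at 0 h and to 2207 to 2670 CPM at 6 h. Across all genes tested, the median log2 change was 0.31 at 6 h in CTL, 0.12 at 6 h in CKO and -0.29 for CKO against CTL at 6 h. When only genes with a mean of at least 1 CPM were kept, these medians were 0.03, -0.01 and -0.03.

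The promoters of the 3 RUNX genes shared a sequence that almost no other promoter window held. A sequence as long as this one is rare by its length alone. RefSeq windows (GRCm38.p6, 250 bases before to 50 after each start) were searched on both strands for AACCACANAACCACA, in which the reverse complement of the RUNX motif TGTGGT, preceded by an A, stands in 2 copies with 1 base between them. It stood in 5 of 32851 windows (0.0152%), of which 3 belonged to Runx1, Runx2 and Runx3. The stretches are shown because all 3 members carry the repeat in the window at the upstream end of the gene, with its 2 copies in capitals, read on the gene's strand.
Runx1: taaacAACCACAgAACCACAagttg
Runx2: caaacAACCACAgAACCACAagtgc
Runx3: ccctcAACCACAgAACCACAaggcc
They lie at chr16:92826028-92826052 (minus strand), chr17:44814586-44814610 (minus strand) and chr4:135120505-135120529 (plus strand). The repeat began at position 28 of the Runx1 transcript, at position 23 of the Runx2 transcript and at position -135 before the Runx3 start. The other windows holding it were those of Olfr24 and of Gm16225, which reads the same bases as Runx3 on the opposite strand. The single motif TGTGGT, being shorter, was far more common, on either strand in 16.8% of windows. Of the 2 Zbtb7b windows, 1 held it once, in capitals here, starting at position -89, at chr3:89387745-89387770 (minus strand).
Zbtb7b: ggcgaggaacTGTGGTatgtgagtgg
These are matches of letters and not measured binding. The counts join the transcripts of all promoters of a gene, so distal and proximal RUNX transcripts were not separated.

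Per kilobase of exon, which allows levels to be compared between genes, Cd4 stood first in unstimulated CTL cells at 274 CPM per kb. Zbtb7b (51.9) and Cbfb (51.7) came next and did not differ beyond their spread (SD 5.38 and 5.13), followed by Runx3 at 27.9 CPM per kb. Cd8b1 at 16.4 and Runx1 at 11.9 CPM per kb came below with overlapping ranges, and Cd8a at 4.52 and Runx2 at 3.73 CPM per kb were lowest, also with overlapping ranges. The order of the last pair rested on CTL 5.6, the library with the highest Cd8a, since the median Cd8a level was 1.89 CPM per kb against 3.57 for Runx2. By this measure Runx3 had the highest level of the RUNX genes, with 61.1 to 68.4% of the summed RUNX level per kb in the CTL libraries at 0 h. Cbfb stood at 1.19 times that sum (SD 0.0718, n = 6). The order of Runx1 and Runx3 rests on the length of all exons of a gene joined, 12025 bases for Runx1 and 5003 for Runx3. Before division by length, their means in CTL at 0 h were 143.4 CPM (SD 14.6) for Runx1 and 139.5 CPM (SD 20.5) for Runx3. The lengths of the transcripts in these cells were not measured.

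**Figure D1:**
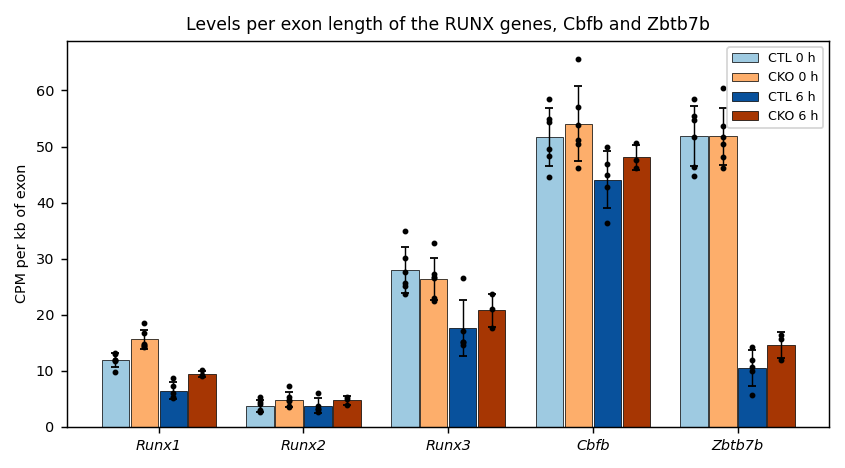
Level of Runx1, Runx2, Runx3, Cbfb and Zbtb7b in CPM per kb of exon in the 4 groups; bars are means, error bars SD, points libraries. Zbtb7b stands beside Cbfb at 0 h, at 51.9 CPM per kb in CTL, and below Runx3 at 6 h, at 10.5 against 17.7 CPM per kb.

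After 6 h with beads, 6 of the 8 genes fell in CTL cells and none rose. Zbtb7b, with the smallest adjusted p, fell 5.08-fold, and Cd4, Cd8a, Cd8b1, Runx1 and Runx3 fell as well, while Runx2 and Cbfb did not pass the test. In CKO cells 5 of the 8 fell, the same genes apart from Runx3. The background is high in both: 21.7% of all genes were called lower and 63.4% called in either direction in CTL, and 13.1% and 32.8% in CKO (edgeR quasi-likelihood test, Benjamini-Hochberg adjusted p under 0.05, here called). The median log2 change of the 8 genes was -0.95 in CTL and -0.75 in CKO, against 0.31 and 0.12 over all genes. Those medians over all genes were smaller in size when only genes with a mean of at least 1 CPM were kept, as given above. In bulk libraries, fewer cells with a transcript and less transcript per cell cannot be told apart. The T cell markers moved the same way, with 6 of 8 called lower in each genotype, and their part in the lower coreceptor values was not tested.

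**Figure D2:**
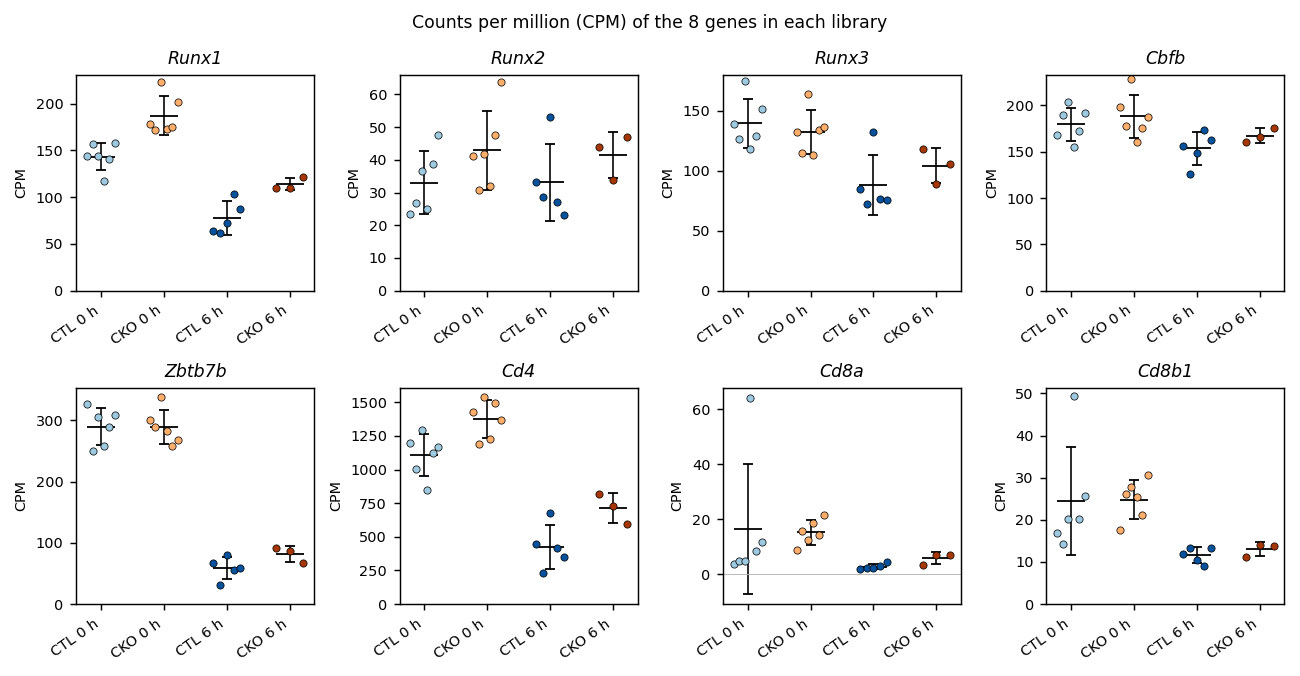
CPM of each of the 8 genes in every library, by group; points are libraries, lines the mean and SD. Zbtb7b and Cd4 at 6 h lie below every 0 h library in both genotypes, Runx2 overlaps across all groups, and Cd8a has 1 CTL library at 64.3 CPM.

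Runx1 (ENSMUSG00000022952, protein coding, GRCm38 chr16:92601466-92826149, minus strand) encodes a RUNX subunit present through T cell development and in resting CD4 T cells. Its level at 0 h ran from 117 through a median of 144 to 158 CPM in CTL. At 6 h the 5 CTL libraries stood at 61.3 (4.24), 63.5 (4.29), 72.3 (5.13), 87.2 (10.28) and 104 CPM (9.20). All 5 lay below every CTL library at 0 h, a separation in the lower direction that 12.6% of all genes showed. The log2 change was -0.89 ± 0.13 (SE, adjusted p = 1.62e-05). In CKO, Runx1 went from 171 to 223 CPM (median 177) at 0 h to 110 (5.13), 110 (5.6) and 121 CPM (11.18) at 6 h, again without overlap, as 17.1% of all genes did. That log2 change was -0.70 ± 0.16 (adjusted p = 0.00244).

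Runx3 (ENSMUSG00000070691, protein coding, chr4:135120652-135177990, plus strand) encodes the RUNX factor best known for the CD8 lineage and cytotoxic genes. In CTL it ran from 118 through 134 to 175 CPM at 0 h. At 6 h it stood at 72.6 (4.24), 75.7 (10.28), 76.0 (9.20), 85.0 (4.29) and 132 CPM (5.13). Library 5.13 alone reached into the 0 h range, and the other 4 lay close together below it. The log2 change was -0.70 ± 0.14 (adjusted p = 0.000265), and -0.85 without CTL 5.13 at 6 h. In CKO, the 6 h values of 88.8, 106 and 118 CPM overlapped the 0 h range of 113 to 164 CPM. The log2 change in CKO was -0.26 ± 0.16 (adjusted p = 0.234). The change was called in CTL and not in CKO, but the difference between them did not pass the test (0.44 ± 0.21, adjusted p = 0.465).

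Runx2 (ENSMUSG00000039153, protein coding, chr17:44495987-44814797, minus strand), whose product is the RUNX factor of bone formation and is also expressed in some T cells, showed no called change. It ran from 23.3 to 47.6 CPM at 0 h and from 23.1 to 53.1 CPM at 6 h in CTL, with a log2 change of -0.05 ± 0.22 (adjusted p = 0.861). In CKO it ran from 30.8 to 63.9 CPM at 0 h and from 33.7 to 47.1 CPM at 6 h, with a log2 change of 0.04 ± 0.26 (adjusted p = 0.932). Both estimates lay near 0 and changed sign with the scaling or the covariates.

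Cbfb (ENSMUSG00000031885, protein coding, chr8:105170674-105217989, plus strand) encodes the partner that all 3 RUNX proteins need for stable DNA binding. It had the smallest standard error of the 8 genes in every comparison. In CTL it ran from 155 to 203 CPM at 0 h and from 126 to 174 CPM at 6 h, and the log2 change of -0.24 ± 0.10 lay at the threshold (adjusted p = 0.0531). Leaving out 1 library at a time made it a call in 11 of 20 cases. In CKO the log2 change was -0.15 ± 0.12 (adjusted p = 0.39). Per kb, Cbfb stood at 1.63 times the summed RUNX level at 6 h in CTL and 1.39 times in CKO, against 1.19 and 1.16 times at 0 h.

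Zbtb7b (ENSMUSG00000028042, protein coding, chr3:89377644-89394776, minus strand) encodes ThPOK, the zinc finger factor that fixes the CD4 fate. Its level ran from 250 through 298 to 326 CPM in CTL at 0 h. At 6 h the CTL libraries stood at 31.6 (4.24), 56.1 (9.20), 59.3 (10.28), 66.9 (4.29) and 79.4 CPM (5.13). The highest 6 h library was thus far below the lowest 0 h library, and the log2 change was -2.35 ± 0.16, a 5.08-fold lower level (adjusted p = 2.09e-09). It was -2.16 without CTL 4.24, the shallow library. In CKO, Zbtb7b went from 258 to 338 CPM (median 286) to 66.9 (11.18), 87.0 (5.6) and 91.0 CPM (5.13), without overlap. The log2 change in CKO was -1.73 ± 0.20, 3.33-fold lower (adjusted p = 3.77e-06). Per kb, Zbtb7b stood at 1.88 times Runx3 at 0 h in CTL and at 0.598 times at 6 h, and in CKO at 1.98 and 0.712 times. Zbtb7b was above Runx3 per kb in every library at 0 h, by at least 1.57 times, and below it in every library at 6 h, where the highest ratio was 0.877.

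Cd4 (ENSMUSG00000023274, protein coding, chr6:124864692-124888221, minus strand) encodes the coreceptor for MHC class II and was the gate of the sort. In CTL it ran from 849 through 1145 to 1293 CPM at 0 h. At 6 h it stood at 231 (4.24), 352 (10.28), 414 (9.20), 447 (4.29) and 674 CPM (5.13). All 5 lay below the 0 h range, and the log2 change was -1.46 ± 0.17, 2.75-fold lower (adjusted p = 2.09e-06). In CKO, Cd4 went from 1192 to 1543 CPM (median 1399) to 597 (11.18), 729 (5.6) and 820 CPM (5.13), without overlap. The log2 change was -0.80 ± 0.21, 1.74-fold lower (adjusted p = 0.00708). Without CKO 11.18 at 6 h it was -0.60 and not called (adjusted p = 0.0858).

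Cd8b1 (ENSMUSG00000053044, protein coding, chr6:71322788-71337494, plus strand) encodes the β chain of the CD8 coreceptor, which in the spleen is largely limited to conventional CD8 T cells. It ran from 14.2 to 49.3 CPM at 0 h and from 8.94 to 13.4 CPM at 6 h in CTL, with a log2 change of -1.01 ± 0.22 (adjusted p = 0.00063). In CKO it ran from 17.6 to 30.6 CPM at 0 h and from 11.2 to 14.1 CPM at 6 h, with a log2 change of -1.08 ± 0.27 (adjusted p = 0.00542). Neither pair of ranges overlapped.

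Cd8a (ENSMUSG00000053977, protein coding, chr6:71373427-71379173, plus strand) encodes the α chain, which is found on CD8 T cells and also on some dendritic cells. In CTL at 0 h it stood at 3.87 (4.29), 5.0 (4.24), 5.05 (5.13), 8.69 (9.20), 11.7 (10.28) and 64.3 CPM (5.6). At 6 h it ran from 2.11 to 4.45 CPM in CTL. The log2 change was -2.06 ± 0.54 (adjusted p = 0.00259), and -1.32 without CTL 5.6 at 0 h, which was still called. In CKO the 0 h range of 8.98 to 21.7 CPM lay above the 6 h range of 3.39 to 7.18 CPM. That log2 change was -1.78 ± 0.62 (adjusted p = 0.0338), a call kept in 16 of 20 fits that left out 1 library. Of the 10 markers of CD8 T cells and NK cells, Cd8a and Cd8b1 included, 7 were called lower and none higher in CTL. The other 8 summed to 84.1 to 186 CPM at 0 h and 33.0 to 71.0 CPM at 6 h in CTL. Of the 8 dendritic cell markers, which summed to 26.1 to 185 CPM at 0 h and 13.7 to 48.5 CPM at 6 h, 5 were called lower and 1, Xcr1, was called higher (1.56 ± 0.31, edgeR adjusted p = 0.000277). Regulatory T cell markers, by contrast, summed to 136 to 257 CPM at 0 h and 232 to 419 CPM at 6 h in CTL, where Il2ra, itself induced by activation, rose and Ikzf2 and Gpr83 fell. The part of other cells in the lower Cd8a and Cd8b1 values was not tested.

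**Figure D3:**
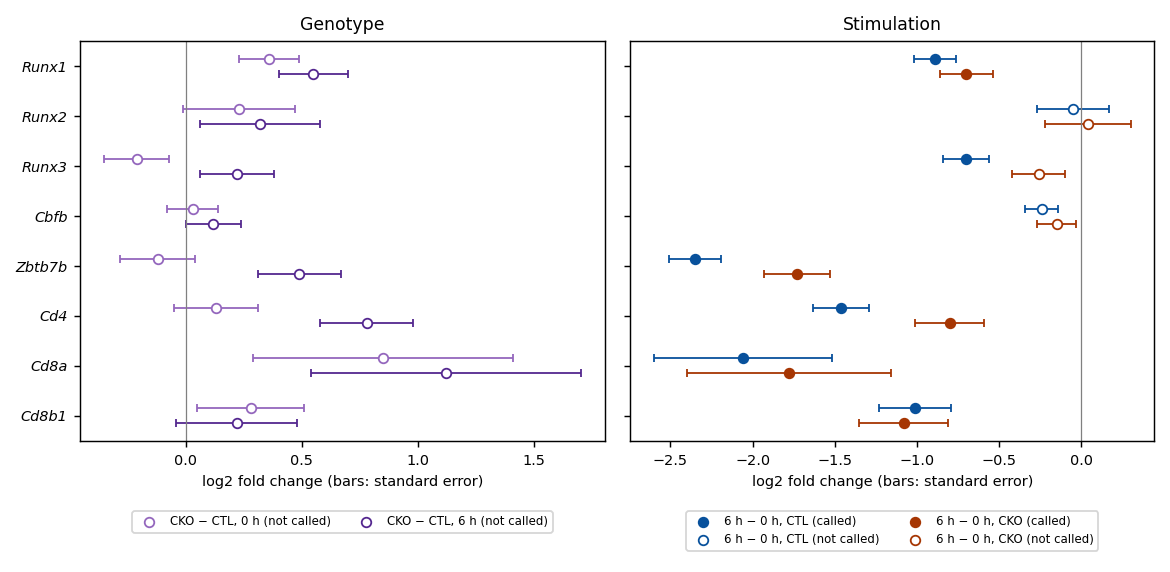
Log2 fold change of the 8 genes with its standard error, for CKO against CTL (left) and for 6 h against 0 h (right); filled points were called and open points were not. The left panel has no filled point, and Zbtb7b at -2.35 in CTL is the lowest value of the right panel.

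At rest, Runx1 was the gene that best separated CKO from CTL cells, and none of the 8 passed the test between genotypes. No gene of the 8 was called by edgeR, where 0.424% of all genes were, 1 had an unadjusted p under 0.05, as did 7.54% of all genes, and none was called by DESeq2, where 2.07% of the genes with an adjusted p were. The fit that paired libraries by number also called none, although it called 290 genes in all against 119 without the pairing. The fitted differences below were estimated with the labelled sex in the model. That term can take up part of a genotype difference here, because the female labels at 0 h lay only in CTL.

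Runx1 was higher in all 6 CKO libraries than in any CTL library at 0 h. The CKO libraries ran from 171 through 177 to 223 CPM and the CTL libraries from 117 through 144 to 158 CPM, a separation in the higher direction that 0.951% of all genes showed. The log2 difference was 0.36 ± 0.13 (adjusted p = 0.439), so it did not pass the test over all genes. It was positive in 5 of 5 pairs of libraries with the same number, from 0.13 to 0.63 on the log2 scale. Runx1 supplied 31.2 to 35.6% of the summed RUNX level per kb in CKO and 23.5 to 31.6% in CTL, and Runx3 supplied 53.1 to 58.5% against 61.1 to 68.4%. Runx3 itself differed by -0.21 ± 0.14 (adjusted p = 0.825) and Cbfb by 0.03 ± 0.11 (adjusted p = 0.976), with overlapping ranges. Runx2 differed by 0.23 ± 0.24 (adjusted p = 0.91) and was higher in CKO in 5 of 5 pairs.

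Zbtb7b had nearly equal means at 0 h, 290 ± 30.1 CPM in CTL and 289 ± 28.1 CPM in CKO (SD, n = 6 each), with a log2 difference of -0.12 ± 0.16 (adjusted p = 0.932). Cd4 was higher in CKO in 5 of 5 pairs, by 0.25 to 0.53 on the log2 scale, and the ranges of 849 to 1293 and 1192 to 1543 CPM overlapped. Its fitted log2 difference was 0.13 ± 0.18 (adjusted p = 0.938) with the labelled sex in the model. It was 0.32 without a sex term and 0.27 with the measured Ddx3y level in its place, neither called. Cd8b1 differed by 0.28 ± 0.23 (adjusted p = 0.874).

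Cd8a at 0 h depended on CTL 5.6. With it the mean was 16.4 CPM in CTL and 15.3 CPM in CKO, and the log2 difference fitted with the labelled sex was 0.85 ± 0.56 (adjusted p = 0.822). Without the sex term the difference was -0.10, and without CTL 5.6 it was 1.38 (adjusted p = 0.0767). In that library Cd8a stood at 8.39% of Cd4 per kb, against 0.358 to 1.12% in the other 5 CTL libraries at 0 h, and Cd8b1 at 49.3 CPM was also the highest of all 20 libraries. Of the markers of other cell types, the CD8 T cell and NK cell markers without Cd8a and Cd8b1 summed to 186 CPM. The B cell markers summed to 367 CPM, the myeloid markers to 124 CPM and the gamma delta T cell markers to 32.2 CPM. Each of these sums was the highest of the CTL libraries at 0 h. The dendritic cell markers summed in CTL 5.6 to 38.7 CPM. This was near the low end of their range of 26.1 to 185 CPM over the CTL libraries at 0 h. In CKO 5.6 at 0 h, the B cell markers summed to 233 CPM and the myeloid markers to 118 CPM, with Cd8a at 18.6 CPM. The part of other cells in the Cd8a value of CTL 5.6 was not tested.

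**Figure D4:**
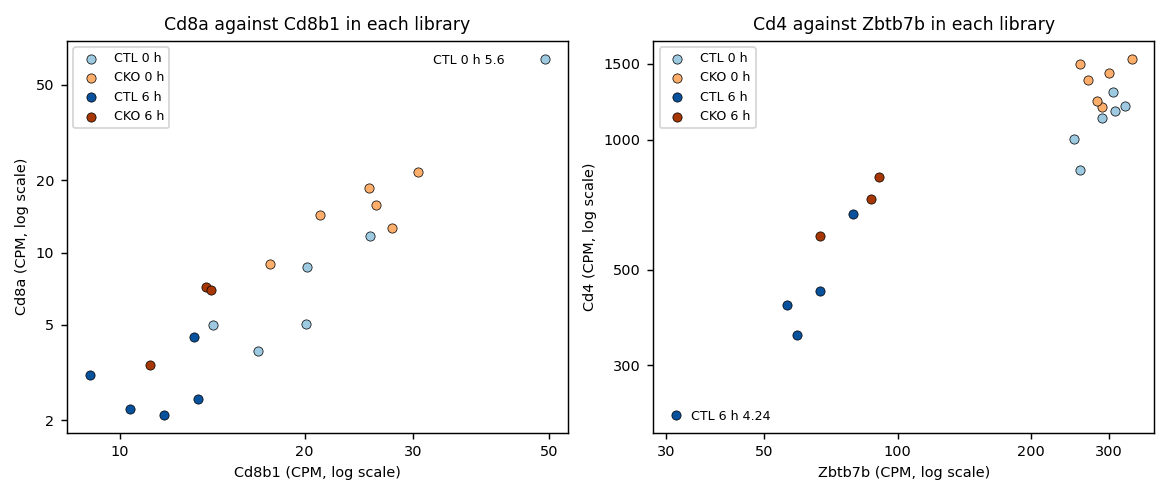
Cd8a against Cd8b1 (left) and Cd4 against Zbtb7b (right), in CPM on log scales, each point 1 library. CTL 5.6 at 0 h lies apart at 64.3 CPM of Cd8a, and CTL 4.24 at 6 h is lowest for both Cd4 (231 CPM) and Zbtb7b (31.6 CPM).

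At 6 h, all 8 genes had higher mean values in CKO than in CTL cells. The share of all genes with a higher mean in CKO was not counted. Cd4, Runx1 and Zbtb7b had the smallest unadjusted p of the 8 by edgeR. None of the 8 genes was called by edgeR, where 0.292% of all genes were, although these 3 had an unadjusted p under 0.05, as did 12.7% of all genes. DESeq2 called 2, Cd4 and Runx1, where it called 2.45% of the genes with an adjusted p. The median log2 difference of the 8 genes was 0.40, against -0.29 over all genes. That median over all genes was smaller in size when only genes with a mean of at least 1 CPM were kept, as given above.

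Cd4 stood at 597 to 820 CPM in the 3 CKO libraries and at 231 to 674 CPM in the 5 CTL libraries. Only CTL 5.13 reached into the CKO range. The log2 difference was 0.78 ± 0.20, 1.72-fold higher (edgeR adjusted p = 0.125, DESeq2 adjusted p = 0.00722). Single libraries decided the edgeR call: it was made without CTL 5.13 at 6 h (0.97, adjusted p = 0.0122) and without CKO 11.18 at 6 h (0.97, adjusted p = 0.0421). Without CKO 5.6 at 6 h the log2 difference was 0.59 (adjusted p = 0.984). All 8 genes had this same adjusted p in that fit, so it is not particular to Cd4. Number 5.13 is the only number that both genotypes share at 6 h, and there Cd4 was 674 CPM in CTL and 820 CPM in CKO. In that pair Runx2 and Runx3 were lower in CKO, with log2 differences of -0.27 and -0.17, and the other genes were higher.

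Runx1 stood at 110, 110 and 121 CPM in CKO and at 61.3 to 104 CPM in CTL at 6 h. The ranges did not overlap, in the higher direction as for 3.65% of all genes. The log2 difference was 0.55 ± 0.15 (edgeR adjusted p = 0.169, DESeq2 adjusted p = 0.026). With 1 library left out at a time, the Runx1 difference ran from 0.47 to 0.68. Zbtb7b stood at 66.9 to 91.0 CPM in CKO and 31.6 to 79.4 CPM in CTL, ranges that overlapped, and the log2 difference was 0.49 ± 0.18 (edgeR adjusted p = 0.346). For Zbtb7b it was 0.33 without CTL 4.24. Runx3 differed by 0.22 ± 0.16 (adjusted p = 0.467), Runx2 by 0.32 ± 0.26 (adjusted p = 0.491) and Cbfb by 0.12 ± 0.12 (adjusted p = 0.546). Cd8a stood at 3.39 to 7.18 CPM in CKO against 2.11 to 4.45 CPM in CTL, a log2 difference of 1.12 ± 0.58 (adjusted p = 0.402). Cd8b1 differed by 0.22 ± 0.26 (adjusted p = 0.599).

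Part of the regulatory T cell markers was higher in CKO. Foxp3, Il2ra, Ikzf2 and Gpr83 summed to 191 to 589 CPM in CKO and 136 to 257 CPM in CTL at 0 h, and to 384 to 585 and 232 to 419 CPM at 6 h, with overlap at both times. None of the 4 was at 0 in any library, and the CD25- gate is meant to leave out most cells of this kind. Of the 4, Gpr83 was called higher at 0 h (1.18 ± 0.23, edgeR adjusted p = 0.0227) and Gpr83 and Foxp3 were called higher at 6 h. Il2ra and Ikzf2 were called at neither time, with differences of 0.52 ± 0.39 and 0.87 ± 0.27 at 0 h and of 0.14 ± 0.42 and 0.87 ± 0.30 at 6 h (edgeR adjusted p from 0.271 to 0.857). The part of these cells in the Runx1, Cd4 and Zbtb7b values was not tested.

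Whether stimulation acted on the 8 genes differently in the 2 genotypes was tested as an interaction. None was called by edgeR or by DESeq2, where neither called any gene (0.0% of all), and 2 had an unadjusted p under 0.05, as did 9.7% of all genes. These were Zbtb7b, with 0.61 ± 0.24, and Cd4, with 0.66 ± 0.27 (both edgeR adjusted p = 0.465), positive where the fitted fall was smaller in CKO. Without CTL 4.24 they were 0.38 and 0.44. The interaction was 0.19 ± 0.20 for Runx1 (adjusted p = 0.61) and -0.07 ± 0.34 for Cd8b1 (adjusted p = 0.919). The median interaction over all genes tested, low-count genes included, was -0.27.

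Within groups, some of the genes varied together. Over the 20 libraries, after subtraction of each group's mean log2 CPM, Zbtb7b and Cd4 had a Pearson r of 0.88, and 0.768 without CTL 4.24. Cd8a and Cd8b1, the chains of 1 receptor, had an r of 0.882, and 0.684 without CTL 5.6 at 0 h. Runx1 went with Cbfb (0.765) and hardly with Runx3 (0.155), while Runx3 went with Cd4 (0.785) and with Runx2 (0.709). These values share libraries, depth and scaling, and are given as a description. Among 9655 annotated genes with a mean of at least 5 CPM, the closest to Zbtb7b were Tbc1d22b (0.987), Retreg3 (0.977) and Trpc4ap (0.977), and the closest to Cd4 were Ehd3 (0.964), Unc119b (0.964) and Armcx2 (0.957). Those closest to Runx1 were Nup160 (0.918), Ssr1 (0.881) and Myo10 (0.867), and those closest to Runx3 were Sec24d (0.885), Ifnar2 (0.879) and Mfsd6 (0.875).

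Genes that work upstream of or beside these factors in the lineage choice fell in larger part than they rose after stimulation. Of 24 such genes, 17 fell and 3 rose in CTL (median log2 change -0.63), and 7 fell and 3 rose in CKO (median -0.24). Over all genes, 21.7% fell and 41.6% rose in CTL, and 13.1% fell and 19.6% rose in CKO, and the counts of the lists below stand against the same shares. An unadjusted p under 0.05 between genotypes, counted below as well, was reached by 7.54% of all genes at 0 h and 12.7% at 6 h. A gene named for only 1 genotype was among the 4 of its list with the smallest adjusted p there. Its change is not thereby particular to that genotype. Themis, a signalling protein of thymic selection, fell by 1.69 on the log2 scale in CTL and by 1.27 in CKO. Tox2, an HMG-box factor, fell by 2.26 and by 2.17, and Ikzf1, which encodes Ikaros, fell by 1.04 in CTL. Id2 fell by 0.89 in CTL and Id3 by 1.83 in CKO, both encoding inhibitors of E proteins. Satb1, a chromatin organiser, rose by 0.92 in CKO, from a mean of 664 to 1231 CPM, and its mean in CTL went from 774 to 1152 CPM. Between genotypes none of the 24 was called by edgeR, with 4 at 0 h and 8 at 6 h having an unadjusted p under 0.05 and DESeq2 calling 1 at each time. The most abundant, Ets1 and Tcf7, differed at 0 h by 0.04 ± 0.17 and -0.14 ± 0.16 (adjusted p = 0.981 and 0.923) and at 6 h by 0.58 ± 0.19 and 0.36 ± 0.18 (adjusted p = 0.308 and 0.402).

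Of 25 corepressors, coactivators and modifiers of RUNX proteins, 12 fell and 8 rose in CTL, and 5 fell and 5 rose in CKO, where 32.8% of all genes were called in either direction. The Groucho family corepressors Tle5 and Tle3 fell in both, by 1.21 and 1.33 in CTL and by 0.99 and 1.01 in CKO. Pim1, a kinase induced in activated lymphocytes, rose from 150 to 711 CPM in CTL and from 197 to 864 CPM in CKO. Fli1, an ETS factor, fell by 0.89 in CTL, and Suv39h1, a histone methyltransferase, rose by 0.67 in CKO. None was called between genotypes by edgeR or DESeq2, with 6 at 0 h and 4 at 6 h at an unadjusted p under 0.05. Kmt2a and Ncor1, the most abundant, differed by -0.48 ± 0.23 and -0.19 ± 0.14 at 0 h (adjusted p = 0.668 and 0.854) and by 0.31 ± 0.26 and 0.23 ± 0.16 at 6 h (adjusted p = 0.492 and 0.459).

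Of 20 genes of the CD8 and cytotoxic programme, which RUNX3 promotes and ThPOK restrains, 9 fell and 3 rose in CTL and 11 fell and 2 rose in CKO. Prf1, the gene for perforin, fell by 2.54 in CTL and by 1.94 in CKO. Nkg7, a granule protein gene, fell by 2.28 and by 2.68, Ctsw, a cathepsin gene, by 1.31 and by 1.46, and Cst7, a cystatin gene, by 2.14 in CKO. Xcl1, a chemokine gene, rose in CTL from 2.98 to 18.2 CPM. Between genotypes the median was -0.34 at 0 h and -0.45 at 6 h, against 0.05 and -0.29 over all genes, low-count genes included. None was called by edgeR, 4 and 8 had an unadjusted p under 0.05, and DESeq2 called 1 and 2. The most abundant, Ctsw and Ccl5, differed at 0 h by -0.27 ± 0.13 and -0.69 ± 0.30 (adjusted p = 0.671 and 0.595) and at 6 h by -0.42 ± 0.15 and -0.91 ± 0.38 (adjusted p = 0.34 and 0.371). CD8 T cell and NK cell markers, some of them in this list, summed to 29.5 to 45.6 CPM in CKO and 33.0 to 71.0 CPM in CTL at 6 h, and their part was not tested.

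Of 12 features of helper cells, 6 fell and 3 rose in CTL, and 5 fell and 2 rose in CKO. Izumo1r, the folate receptor 4 gene, fell by 2.87 and by 2.90, and Cxcr5, the chemokine receptor of follicular helper cells, by 2.13 and by 2.09. Lag3, an inhibitory receptor gene that binds MHC class II, fell by 2.42 in CKO, and its mean in CTL went from 64.2 to 17.8 CPM. Tnfrsf4, the OX40 gene, rose from 40.0 to 175 CPM in CTL and from 70.8 to 221 CPM in CKO. Il4 rose from 2.0 to 22.1 CPM in CTL, and its mean in CKO went from 3.15 to 9.48 CPM. None was called between genotypes by edgeR or DESeq2, with 4 at each time at an unadjusted p under 0.05. Cd5 and Cd6, the most abundant, differed by -0.02 ± 0.13 and -0.19 ± 0.13 at 0 h (adjusted p = 0.991 and 0.846) and by 0.28 ± 0.14 and 0.09 ± 0.15 at 6 h (adjusted p = 0.401 and 0.695).

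Of 17 T cell genes that RUNX factors are known to bind or control, 5 rose and 6 fell in CTL, and 7 rose and 6 fell in CKO. Il2 rose from 1.89 to 106 CPM in CTL and from 1.72 to 95.3 CPM in CKO. Cd69, an early activation marker, rose from 69.0 to 405 CPM in CTL, and its mean in CKO went from 70.6 to 284 CPM. Csf2, the GM-CSF gene, rose by 4.34 and Il2ra by 3.05 on the log2 scale in CKO. Their means in CTL went from 0.18 to 2.68 CPM and from 16.2 to 175.6 CPM. The T cell receptor genes Cd3g and Cd3e fell by 1.20 and 0.91 in CTL, and Cd3g by 1.09 in CKO. The Cd3e mean in CKO went from 511 to 297 CPM. At 0 h no gene of this list was called between genotypes by edgeR, 3 had an unadjusted p under 0.05 and DESeq2 called 2. Itgal, the gene of an integrin chain and the most abundant of the list, differed at 0 h by -0.01 ± 0.20 (edgeR adjusted p = 0.998). At 6 h, Foxp3 was called higher in CKO, with 93.4, 128 and 138 CPM against 37.4 to 62.3 CPM in CTL (1.29 ± 0.27, edgeR adjusted p = 0.0488). Foxp3 and Il2ra are also among the regulatory T cell markers above. No gene of the 5 lists had a called interaction by edgeR or DESeq2, and 2, 3, 2, 2 and 4 genes of the lists, in the order given, had an unadjusted p under 0.05, against 9.7% of all genes.

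Some genes overlap the 8 in the annotation. The libraries were made with a stranded kit, but the counting's strand setting is not given in the sources used here, and reads of overlapping genes on opposite strands may not be separated. Runx2os1 shares 519 exon bases with Runx2 on the opposite strand and rose from 0.208 to 1.26 CPM in CTL (2.48 ± 0.54, edgeR adjusted p = 0.000574), small beside the 33.0 CPM of Runx2. The mean at 6 h leaned on CTL 4.24, the shallow library, at 3.7 CPM, and the median there was 0.635 CPM. Gm26626 shares 106 bases with Runx1 and stood at 1.69 CPM at 0 h in CTL, and Gm15417 shares 116 bases with Zbtb7b and stood at 4.39 CPM. Supt3 spans the start of Runx2 without shared exon bases.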

How the data were processed

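Poly(A) RNA of 20 libraries was read as paired ends, per the labels' protocols. Raw counts per gene were deposited by the authors as 1 table. STAR 2.5.2b, featureCounts, Subread 1.5.2, Trimmomatic 0.36 and the build GRCm38 are listed in the submitters' processing notes. RNA integrity varied, per the labels' protocols, and is not known per library. The annotation release was not given in the sources used here. Of 49315 gene IDs, 49056 matched GENCODE M21 and 259 did not; 0 columns belonged to other samples. Totals ran from 26427467 to 85608113 counts per library.

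Counts were fitted with edgeR 4.0.16 in R 4.3.3 (TMM scaling, filterByExpr with a minimum count of 10, quasi-likelihood test with robust dispersion) over all 20 libraries, with 4 groups and the labelled sex. The sex labels were partly tied to genotype at 0 h, as given above. SE is the log2 change over the square root of F. Genes with an adjusted p under 0.05 were called. CPM values use TMM-scaled totals, and a pseudocount of 0.5 was used for correlations. Figures per kb use union exon length. The steps were tested on simulated data.

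All 8 genes are reported in each comparison. From each list up to 4 called genes with the smallest adjusted p are named, or the 2 most abundant where none was called, plus overlapping genes and the 3 genes most alike Runx1, Runx3, Zbtb7b and Cd4. One gene that this rule names is not reported here. The genes and lists were chosen with earlier results of these data known. Alternatives were DESeq2 1.42.0, RLE scaling, no filter, a mean of at least 1 CPM, no sex term, the Ddx3y level, only the groups compared, the replicate number as a block, and leaving out libraries.

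Libraries with the same number deviated together in the CTL and CKO groups at 0 h (r of 0.236 to 0.703 over 5 pairs). Other pairs of these groups had a median r of -0.0871, but CTL 9.20 and CKO 11.18 reached 0.624. In CTL between 0 h and 6 h, same-number pairs had an r of 0.248 to 0.528 (5 pairs), against a median of -0.104 for other pairs. The numbers were taken to pair these groups. The main fit did not hold the number, so its standard errors and p-values leave this pairing out. The replicate block was fitted only as an alternative.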

Additional observations from a re-analysis of the deposited data

Results flagged for a closer look

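In the 24 sets of 4 to 10 libraries of 1 group (8 genes in 3 groups), 3 values stood apart from the rest by Dixon's criterion, which chance meets in about 1 in 20 sets. Runx3 in CTL 5.13 at 6 h was 132 CPM, where the other 4 libraries ran from 72.6 to 85.0 CPM; Cd4 was also highest in that library, at 674 CPM. Cd8a in CTL 5.6 at 0 h was 64.3 CPM, where the other 5 ran from 3.87 to 11.7 CPM. Cd8b1 in the same library was 49.3 CPM, where the others ran from 14.2 to 25.6 CPM.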

How the results depend on the processing

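The number of the 8 genes called at 6 h between genotypes was 0 and became 1 with a mean of at least 1 CPM and the Ddx3y level (chosen after seeing the data) and 2 with DESeq2, and ran from 0 to 1 when 1 library was left out. In the other comparisons the number stayed within 1.5 times: 6 to 7 for stimulation in CTL, 4 to 6 in CKO, and 0 in every fit for genotype at 0 h and for the interaction. Counts over all genes moved more, from 49 to 283 at 0 h and from 16 to 212 at 6 h between genotypes when 1 library was left out, and to 421 and 432 with DESeq2 and 8 at 6 h with only the groups compared. For Runx3 in CKO, stimulation was called with the replicate block (-0.45) and with the block and the Ddx3y level (-0.44); numbers 5.13, 5.6 and 11.18 correlated there by 0.0935 to 0.506, so they were not taken as pairs. Cd8a in CKO was not called with no filter (-1.79), no sex term (-1.39), the Ddx3y level (-1.41), without the 2 CKO libraries whose sex label did not match (-1.73), or with a mean of at least 1 CPM and the Ddx3y level (-1.28). Signs changed only for values that were no call. For Runx2 after stimulation in CTL these were 0.03 with RLE factors, 0.18 with a mean of at least 1 CPM, 0.0044 without the sex term, 0.15 with that mean and the Ddx3y level and 0.03 with DESeq2. For Runx2 in CKO they were -0.04, -0.03 (Ddx3y level), -0.23 (replicate block), -0.21 (block and Ddx3y level) and -0.18 (without those 2 libraries). For the Runx2 interaction they were -0.04 (mean of at least 1 CPM), -0.05 (no sex term), -0.20 and -0.17 (block without and with Ddx3y level), -0.03 (without those 2 libraries) and -0.06 (mean of at least 1 CPM and Ddx3y level). The Cbfb interaction was -0.02 and -0.01 with a mean of at least 1 CPM, without and with the Ddx3y level, and Cd8a at 0 h between genotypes was -0.10 without the sex term. With the block, without and with the Ddx3y level, the Cd8a interaction was -0.58 and -0.47 and Cd8b1 at 6 h between genotypes -0.26 and -0.29. The Cd8b1 interaction was 0.15 (no sex term), 0.08 (Ddx3y level) and 0.05 (without those 2 libraries). With 1 library left out, Runx2 ran from -0.24 to 0.12 in CTL (0.06 without CTL 10.28 at 6 h), from -0.08 to 0.18 in CKO and from -0.04 to 0.25 for the interaction, Cbfb from -0.03 to 0.08 at 0 h between genotypes (-0.00492 without CKO 4.29 and -0.00299 without CTL 9.20, both at 0 h) and from -0.000251 to 0.17 for the interaction, and the interactions of Cd8a from -0.34 to 0.57 (-0.28 without CTL 5.6 at 0 h) and of Cd8b1 from -0.21 to 0.02 (0.01 without CTL 4.29 and 0.000411 without CKO 11.18, both at 0 h). The causes were not tested. Depth was lowest in CTL 4.24 at 6 h, and the comparisons at 6 h rest on 5 CTL and 3 CKO libraries.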
